A study of Mus musculus with 12 samples.

Results

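The early induction of Mixl1 was described over all genes by comparing the 3 libraries named D1Dox_d2 with the 3 libraries named NoDox_d2. These 6 libraries were taken from the 12 of the series by their labels, which give a treatment and a collection day. All came from mouse epiblast stem cells that had been derived in vitro from embryonic stem cells and grown on as floating embryoid bodies in a medium with serum. The cells of every library, controls included, carry a transgene that makes FLAG-tagged Mixl1 when doxycycline is added. D1Dox_d2 received doxycycline at 1 µg/mL and was collected on day 2, and NoDox_d2 was collected on day 2 without the drug. What the digit after the first D stands for is not given in the labels. No treated library without the transgene is analysed here, so that the action of the drug and that of Mixl1 cannot be told apart. Whether the 3 libraries of a group came from separate cultures is not stated, and p-values then measure the spread between these libraries, which may be technical.

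Mixl1 encodes a paired-like homeodomain transcription factor of the primitive streak, the region of the gastrulating embryo where epiblast cells leave the epithelium and become mesoderm or definitive endoderm. Nodal, Wnt, BMP and FGF signals pattern the streak, and its anterior end gives rise to the organizer, which secretes inhibitors of these signals. Epiblast stem cells resemble the late epiblast and can enter streak, neural or surface ectoderm programmes when they aggregate. The comparison addresses which genes of these programmes differ when Mixl1 is supplied early.

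Levels are CPM, a gene's count relative to the TMM-scaled total of its library, listed for replicates 1, 2 and 3 in that order, and they compare libraries, not genes of different length. A log2 fold change is D1Dox_d2 minus NoDox_d2, given ± its standard error with 3 libraries against 3, and values in parentheses after a gene are log2 fold changes. A gene is said to have risen or fallen where edgeR's quasi-likelihood test gave a Benjamini-Hochberg adjusted p under 0.05 over all genes tested. NoDox_d2 replicate 1 stood apart from its group. Its log2 CPM correlated across the 18109 genes tested at 0.966 and 0.970 with the other NoDox_d2 libraries, which correlated at 0.996 with each other, while D1Dox_d2 libraries correlated at 0.994 to 0.995. Its correlation with D1Dox_d2 libraries was 0.955 to 0.960, against 0.939 to 0.947 for NoDox_d2 replicates 2 and 3 (genes are not independent replicates). Whether its label describes it correctly was not tested, and it is called NoDox_d2 replicate 1 by that label alone. Results are therefore given also from the same fit without that library, called the reduced fit.

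Day 2 libraries held 24100487 to 28020036 counts. Markers of the labelled cell type were present in all of them: the summed level of 6 epiblast markers (Pou5f1, Sox2, Otx2, Fgf5, Dnmt3b and Utf1) was 592, 568 and 529 CPM with doxycycline and 1030, 930 and 1016 CPM without. These markers did not all move with their sum. Pou5f1 and Dnmt3b were lower in every treated library than in any untreated one. Fgf5 was higher in every treated library, and Utf1 overlapped between the groups. Sox2 and Otx2 in treated libraries lay below NoDox_d2 replicates 2 and 3 but above NoDox_d2 replicate 1. The sum of 8 fibroblast markers (Col1a1, Col1a2, Col3a1, Postn, Lum, Dcn, Thy1 and Pdgfrb), all with counts in day 2 libraries, was 1643, 1610 and 1970 CPM with doxycycline and 315, 208 and 205 CPM without. The sums of 5 sex-linked genes, Xist with 4 Y-linked genes, were 17.1, 20.1 and 24.95 CPM against 3.07, 1.66 and 1.64 CPM. Markers of visceral endoderm reached at most 3.54 CPM in sum, those of blood 0.568 CPM with 2 of 4 markers at 0 throughout, and those of trophoblast 0.177 CPM with 2 of 3 at 0. A clone-named gene, CT010467.1, took 2.63%, 4.15% and 8.61% of the counts in D1Dox_d2 and 1.44% to 1.93% in NoDox_d2. In bulk RNA, fewer cells of a type and less RNA per cell cannot be told apart, and the part of the fibroblast and sex-linked genes, or of CT010467.1, in the results was not tested.

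Expression differed widely. Of 18109 genes tested, 5136 (28.4%) changed, 2705 higher (14.9%) and 2431 lower (13.4%) with doxycycline, and the median log2 fold change over all of them was -0.03. The reduced fit called 7438 of 18746 genes (39.7%), 3788 higher (20.2%) and 3650 lower (19.5%), with a median of -0.00015. The counts of each gene list below stand against these shares, those of the reduced fit against its own larger ones. Among genes tested in both fits, 4815 were called in both, all in the same direction (2549 higher and 2266 lower), 321 only with all libraries and 2428 only in the reduced fit. In 8330 genes (46.0%) the CPM of the groups did not overlap, and in 13105 (72.4%) they did not overlap once NoDox_d2 replicate 1 was left out. That library lay between the range of D1Dox_d2 and the range of NoDox_d2 replicates 2 and 3 in 4868 genes, and outside the range of all other day 2 libraries in 7283. Genes named below for the 12 highest or 12 lowest log2 fold changes had to have groups apart, so that their separation is no result. The highest were Vip, Dmbt1, Optc, Grp, Alx1, Dbh, Angpt2, Lmo1, Slc6a5, Nkx6-2, Tac1 and Wnt2. The lowest were Zic1, Cyp26b1, Hes3, Meox1, Pde11a, Pcdh8, Hoxaas2, Chac1, Aldh1a2, Mef2b, Atp2a1 and Ccdc160.

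**Figure D1:**
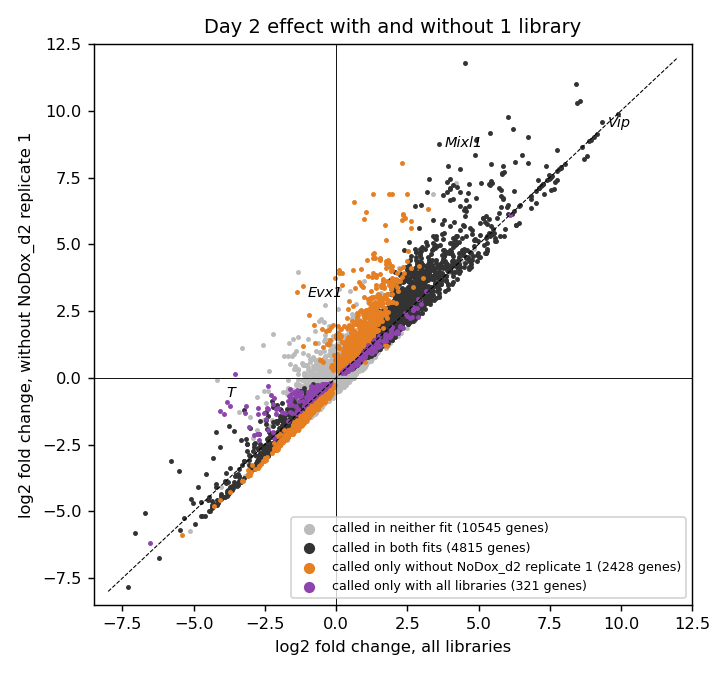
Log2 fold change at day 2 (doxycycline minus none) of each gene from all libraries (x axis) against the reduced fit (y axis), with the dashed line marking equal values and colours marking the fits in which the gene was called. Mixl1 and Evx1 lie far above the line, with 3.62 and -1.16 from all libraries and 8.74 and 3.42 in the reduced fit, while Vip lies close to it with 9.33 and 9.57.

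Mixl1 itself was measured at 392, 362 and 387 CPM with doxycycline and 90.99, 0.593 and 1.15 CPM without. The 3 treated libraries were alike and the groups did not overlap, but NoDox_d2 replicate 1 held far more Mixl1 than the other untreated libraries. Its log2 fold change was 3.62 ± 1.22 (adjusted p = 0.0453), and 8.74 in the reduced fit (adjusted p = 5.12e-09). The call ended when D1Dox_d2 replicate 1, 2 or 3 or NoDox_d2 replicate 2 or 3 was left out (adjusted p from 0.0686 to 0.0933), and the exact two-sided permutation test of the 6 CPM values gave p = 0.1, the smallest that 3 against 3 allows. Mixl1 lies on chromosome 1 at 180693043 to 180697034 (GRCm38, minus strand), and a gene count does not tell transgene from endogenous transcripts.

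Several genes of the organizer and of Nodal signalling rose with doxycycline. Nodal is a TGF-beta family ligand that signals through activin receptors and Smad2 and Smad3, and its antagonists Lefty1 and Cer1 are among its own targets. Among Nodal inhibitors and targets, 6 of 14 tested members rose, 0 fell (edgeR, with 0 lower at an unadjusted p under 0.05 and 0 with DESeq2) and 8 did not pass (median log2 fold change 0.87). The reduced fit had 9 higher and 0 lower, with a median of 1.25. Goosecoid (Gsc), the homeobox gene of the organizer, was at 39.02, 36.3 and 30.5 CPM with doxycycline and 2.37, 1.03 and 1.49 CPM without. Lhx1, a LIM homeobox gene needed for the organizer, was at 79.1, 62.9 and 60.6 CPM with doxycycline and 15.9, 4.62 and 4.35 CPM without. Cer1, a secreted antagonist of Nodal, BMP and Wnt, was at 83.9, 88.2 and 77.5 CPM with doxycycline and 1.94, 1.19 and 0.781 CPM without. For all 3 the groups did not overlap, and NoDox_d2 replicate 1 was the highest untreated library. The log2 fold changes were 4.43 ± 0.45 for Gsc (adjusted p = 4.49e-05, and 4.79 in the reduced fit with adjusted p = 2.70e-05), 3.02 ± 0.53 for Lhx1 (adjusted p = 0.00174, and 3.899 in the reduced fit with adjusted p = 8.61e-05) and 5.99 ± 0.58 for Cer1 (adjusted p = 2.80e-05, and 6.39 in the reduced fit with adjusted p = 3.16e-05).

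Ligands of the pathway moved unevenly. Among Nodal ligands and co-receptors, 2 of 8 tested members of 9 listed rose, 1 fell and 5 did not pass (median log2 fold change 0.66). In the reduced fit 5 were higher and 1 lower, with a median of 0.96. Pcsk6, a protease that activates Nodal precursors, was at 36.3, 35.5 and 43.9 CPM with doxycycline and 1.38, 1.66 and 1.67 CPM without, and its log2 fold change was 4.62 ± 0.17 (adjusted p = 3.28e-08), and 4.51 in the reduced fit (adjusted p = 6.49e-08). Inhba, the activin A subunit, rose (log2 fold change 3.34 ± 0.54, adjusted p = 0.00101, reduced fit 4.07), and Gdf3, a Nodal-related ligand, fell (-0.89 ± 0.19, adjusted p = 0.00562, reduced fit -1.02). Nodal itself, named here after its values were seen, was at 50.7, 53.98 and 48.4 CPM with doxycycline and 52.01, 16.3 and 23.6 CPM without. Its untreated replicate 1 was level with the treated libraries, and the log2 fold change was 0.74 ± 0.35 (adjusted p = 0.135), and 1.34 in the reduced fit (adjusted p = 0.00145), so that the gene was called only in the latter. In the receptor and SMAD list, 2 of 10 tested members rose, 3 fell and 5 did not pass (median log2 fold change -0.00268). Without NoDox_d2 replicate 1 there were 2 higher and 2 lower at a median of -0.01. Acvr1c, the ALK7 receptor, rose from near the limit of counting (1.97, 2.32 and 2.04 CPM with doxycycline and 0.247, 0 and 0.0372 CPM without, log2 fold change 4.36 ± 0.69, adjusted p = 9.37e-04, reduced fit 6.45). Its 156 counts stood against 1 in untreated replicates 2 and 3, a ratio of 109 (95% interval 19.3 to 4339). Smad3, a transducer of the signal, fell (-0.97 ± 0.14, adjusted p = 4.14e-04, reduced fit -1.103).

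For most streak genes NoDox_d2 replicate 1 was above the rest of its group. Among primitive streak and organizer factors, 3 of 17 tested members rose, 4 fell and 10 did not pass (median log2 fold change -0.14). Shares of 17.6% higher and 23.5% lower stood against 14.9% and 13.4% over all genes. Counts in the reduced fit were 7 higher and 3 lower (median 0.74). NoDox_d2 replicate 1 was above both other untreated libraries in 16 of the 17 members. Brachyury (T), the T-box gene of streak and nascent mesoderm, was at 51.1, 52.5 and 54.8 CPM with doxycycline and 1261, 100.1 and 142 CPM without. Evx1, a homeobox gene of the posterior streak, was at 7.54, 8.62 and 8.01 CPM with doxycycline and 52.7, 0.356 and 1.12 CPM without. It was named for the distance of untreated replicate 1 above the other untreated libraries, so that this position was part of the choice. Eomes, a T-box gene of the early streak named here after its values were seen, was at 57.4, 64.6 and 57.2 CPM with doxycycline and 88.7, 13.2 and 23.9 CPM without. In each of the 3 genes untreated replicate 1 was the highest of the 6 libraries. T was lower in treated libraries than in every untreated one, whereas Evx1 and Eomes in treated libraries lay above untreated replicates 2 and 3. For T the log2 fold change was -3.25 ± 0.79 (adjusted p = 0.0109), and -1.21 in the reduced fit (adjusted p = 0.00587). Evx1 was not called with all libraries and had a log2 fold change of -1.16 ± 1.37 (adjusted p = 0.558) and of 3.42 in the reduced fit (adjusted p = 0.0321). Eomes was not called either and had a log2 fold change of 0.51 ± 0.51 (adjusted p = 0.489) and of 1.67 in the reduced fit (adjusted p = 7.95e-04).

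Sp5, a Wnt-induced zinc finger gene, was named, like Evx1, for the distance of untreated replicate 1 above the other untreated libraries. It was at 20.3, 18.8 and 18.8 CPM with doxycycline and 114, 6.48 and 10.4 CPM without. Its log2 fold change was -1.18 ± 0.83 (adjusted p = 0.311), and 1.17 in the reduced fit (adjusted p = 0.0445). Dennd2c, a gene for a guanine nucleotide exchange factor of Rab proteins, was taken for its distance between untreated libraries and stood at 15.98, 16.9 and 18.5 CPM with doxycycline and 62.1, 3.99 and 5.65 CPM without, with a log2 fold change of -0.48 ± 0.76 (adjusted p = 0.670) and of 1.81 in the reduced fit (adjusted p = 3.46e-04). For both genes the sign of the difference turned when NoDox_d2 replicate 1 was left out, which the rule that chose them made likely. Irx2, an Iroquois homeobox gene taken by the same rule for a low level in that library, was at 53.3, 43.5 and 40.7 CPM with doxycycline and 7.56, 109 and 77.3 CPM without and was called in neither fit (-0.49 ± 0.78, adjusted p = 0.674, reduced fit -1.03, adjusted p = 0.189).

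**Figure D2:**
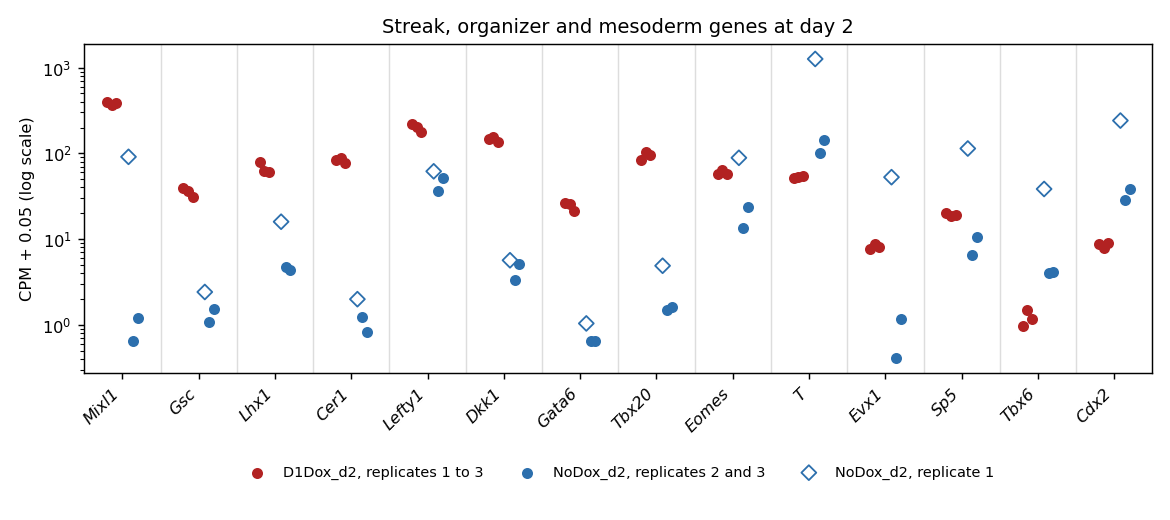
CPM plus 0.05 on a log axis for 14 genes in each day 2 library: filled red circles are D1Dox_d2, filled blue circles NoDox_d2 replicates 2 and 3, and open diamonds NoDox_d2 replicate 1. The diamond lies among or near the untreated circles for Gsc, Cer1 and Dkk1, and above all other libraries for Eomes, T, Evx1, Sp5, Tbx6 and Cdx2.

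Most tested genes of nascent, presomitic and somite mesoderm fell with doxycycline. In this list, 1 of 17 tested members of 19 listed rose, 10 fell and 6 did not pass (median log2 fold change -1.56). With that library left out, 2 were higher and 9 lower (median -1.06). Meox1, a somite homeobox gene, was at 0.795, 1.22 and 0.866 CPM with doxycycline and 21.7, 20.7 and 21.1 CPM without. Pcdh8, a protocadherin of forming somites, was at 2.95, 2.16 and 1.86 CPM with doxycycline and 11.5, 70.8 and 57.5 CPM without. Tcf15, a bHLH gene of somites, was at 1.29, 0.976 and 1.43 CPM with doxycycline and 7.84, 5.06 and 5.43 CPM without. Treated libraries were below every untreated library in all 3 genes, but untreated replicate 1 was low for Pcdh8, the highest for Tcf15 and level for Meox1. Their log2 fold changes were -4.46 ± 0.71 for Meox1 (adjusted p = 0.00100, and -4.45 in the reduced fit with adjusted p = 0.00132), -4.32 ± 0.83 for Pcdh8 (adjusted p = 0.00295, and -4.79 in the reduced fit with adjusted p = 3.92e-04) and -2.31 ± 0.33 for Tcf15 (adjusted p = 4.37e-04, and -2.100 in the reduced fit with adjusted p = 6.14e-04). The only member that rose was Uncx, a homeobox gene of the caudal somite, at 6.86, 5.57 and 4.46 CPM with doxycycline and 0.318, 0.711 and 0.669 CPM without (3.31 ± 0.28, adjusted p = 9.59e-06, reduced fit 3.01).

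Lateral plate, cardiac and endothelial lists held more members that rose than fell. Among lateral plate and cardiac factors, 4 of 14 tested members of 17 listed rose, 1 fell and 9 did not pass (median log2 fold change 0.70). Leaving out NoDox_d2 replicate 1 gave 8 higher and 1 lower (median 1.84). Tbx20, a cardiac T-box gene, was at 84.3, 104 and 96.1 CPM with doxycycline and 4.84, 1.42 and 1.56 CPM without. Gata6, a zinc finger factor of heart and endoderm, was at 26.02, 25.6 and 21.2 CPM with doxycycline and 0.989, 0.593 and 0.595 CPM without. Groups did not overlap in either gene, and the log2 fold changes were 5.17 ± 0.42 for Tbx20 (adjusted p = 7.99e-06, and 5.97 in the reduced fit with adjusted p = 8.68e-08) and 5.05 ± 0.60 for Gata6 (adjusted p = 1.23e-04, and 5.33 in the reduced fit with adjusted p = 1.84e-04). Tbx2, a T-box repressor, rose (5.78 ± 1.14, adjusted p = 0.00351, reduced fit 6.804), and Tbx1, of pharyngeal mesoderm, fell (-2.62 ± 0.37, adjusted p = 4.23e-04, reduced fit -2.59). Among GATA factors and their cofactors, 5 of 6 tested members of 8 listed rose, 0 fell (edgeR, with 0 lower at an unadjusted p under 0.05 and 0 with DESeq2) and 1 did not pass (median log2 fold change 2.83). Its members in the reduced fit were 5 higher and 0 lower, at a median of 3.54. Gata2 (4.06 ± 0.40, adjusted p = 3.51e-05, reduced fit 4.63) and Gata3 (3.24 ± 0.28, adjusted p = 1.43e-05, reduced fit 3.43) followed Gata6 in size.

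Of endothelial and blood progenitor genes, 6 of 16 tested members of 24 listed rose, 1 fell and 9 did not pass (median log2 fold change 0.77). For the reduced fit these numbers were 8 higher and 1 lower (median 1.69). Pecam1, an endothelial adhesion molecule, was at 4.39, 4.23 and 4.81 CPM with doxycycline and 0.989, 0.593 and 0.558 CPM without. Esam, another such molecule, was at 5.57, 5.29 and 5.33 CPM with doxycycline and 1.02, 0.395 and 0.632 CPM without. Treated libraries were higher throughout, with log2 fold changes of 2.64 ± 0.43 for Pecam1 (adjusted p = 0.00116, and 2.94 in the reduced fit with adjusted p = 7.86e-04) and 2.96 ± 0.35 for Esam (adjusted p = 1.30e-04, and 3.36 in the reduced fit with adjusted p = 3.91e-05). Tek, the angiopoietin receptor, rose too (2.62 ± 0.44, adjusted p = 0.00132, reduced fit 3.21). Etv2, the early regulator of the lineage, fell (-1.23 ± 0.34, adjusted p = 0.0209, reduced fit -1.55), a call that ended when D1Dox_d2 replicate 2 or 3 or NoDox_d2 replicate 2 or 3 was left out (adjusted p from 0.0503 to 0.0842). The ligand gene Angpt2 was among the 12 highest log2 fold changes, at 265, 266 and 286 CPM with doxycycline and 2.75, 1.03 and 1.15 CPM without (7.36 ± 0.48, adjusted p = 1.78e-06, reduced fit 7.95).

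Endoderm genes moved in both directions. Among definitive endoderm genes, 3 of 16 tested members of 18 listed rose, 2 fell and 11 did not pass (median log2 fold change -0.25). On leaving out untreated replicate 1, 5 were higher and 3 lower, with a median of -0.23. With all libraries the share called was close to the 28.4% over all genes, and the members that rose were Gsc, Gata6 and Cer1. Trh, the thyrotropin-releasing hormone gene, fell (-1.58 ± 0.26, adjusted p = 0.00110, reduced fit -1.76), and so did Hhex (-0.65 ± 0.18, adjusted p = 0.0198, reduced fit -0.61), a homeobox gene of anterior endoderm, whose call ended when D1Dox_d2 replicate 2 or 3 or NoDox_d2 replicate 2 was left out (adjusted p from 0.0557 to 0.0742). In the list for visceral and yolk sac endoderm, 1 of 11 tested members of 17 listed rose, 1 fell and 9 did not pass (median log2 fold change 0.25). By the reduced fit, 2 rose and 2 fell (median 0.70). The share called was under that over all genes. The called members were Sparc (1.05 ± 0.09, adjusted p = 9.89e-06, reduced fit 1.09), a matrix glycoprotein, and Lrp2 (-1.704 ± 0.45, adjusted p = 0.0156, reduced fit -2.09), the endocytic receptor megalin, whose call ended when D1Dox_d2 replicate 1 or 2 or NoDox_d2 replicate 2 or 3 was left out (adjusted p from 0.0524 to 0.0597). Among trophoblast genes, 1 of 8 tested members of 13 listed rose, 2 fell and 5 did not pass (median log2 fold change 0.26). From the reduced fit came 4 higher and 2 lower members (median 1.18). Gata3 was the member that rose.

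Several of the 12 highest log2 fold changes belonged to genes of no streak list. Optc, which encodes the matrix proteoglycan opticin, was at 103, 106 and 108 CPM with doxycycline and 0.247, 0.909 and 0.409 CPM without (7.67 ± 0.36, adjusted p = 1.51e-07, reduced fit 7.31). Alx1, a paired-like homeobox gene of craniofacial mesenchyme, was at 36.3, 31.5 and 31.97 CPM with doxycycline and 0.0353, 0.316 and 0.186 CPM without (7.53 ± 0.58, adjusted p = 5.21e-06, reduced fit 7.02). Dbh, the enzyme that makes noradrenaline from dopamine, was at 85.1, 71.3 and 84.1 CPM with doxycycline and 0.530, 0.435 and 0.372 CPM without (7.47 ± 0.17, adjusted p = 3.08e-10, reduced fit 7.61). Treated libraries differed little among themselves in all 3, and untreated libraries were under 1 CPM. Slc6a5, the neuronal glycine transporter, was at 8.90, 11.5 and 12.04 CPM with doxycycline and 0.106, 0.119 and 0 CPM without (7.09 ± 0.58, adjusted p = 8.21e-06, reduced fit 7.42), with 796 counts against 3 in untreated replicates 2 and 3, a ratio of 186 (95% interval 63.3 to 902). Dmbt1, which encodes a mucosal glycoprotein, was at 7.16, 9.56 and 13.3 CPM with doxycycline and 0.0706, 0 and 0 CPM without. It held 732 counts against 2, a ratio per count sequenced of 393 (95% interval 109 to 3255, counting error only). Both untreated counts were in replicate 1, and against the other untreated libraries Dmbt1 was at least 171-fold higher, with a floor of 3 counts over the group. Without NoDox_d2 replicate 2 the log2 fold changes were 8.18 for Alx1 and 8.31 for Optc.

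At the other end, Hes3, a Hes family repressor of neural progenitors, was at 0.985, 0.895 and 0.303 CPM with doxycycline and 15.5, 15.8 and 19.4 CPM without (-4.51 ± 0.40, adjusted p = 1.47e-05, reduced fit -4.58). Pde11a, a cyclic nucleotide phosphodiesterase, was at 1.67, 1.30 and 2.60 CPM with doxycycline and 6.14, 54.5 and 52.8 CPM without (-4.35 ± 0.74, adjusted p = 0.00144, reduced fit -4.87). Atp2a1, a calcium pump of the sarcoplasmic reticulum, was at 0.417, 0.732 and 0.953 CPM with doxycycline and 9.46, 12.02 and 9.41 CPM without (-3.88 ± 0.58, adjusted p = 6.03e-04, reduced fit -3.95). The groups were apart in each, as the rule that chose them required. Untreated replicate 1 was level with its group for Hes3 and Atp2a1 and low for Pde11a. Mef2b, a MADS-box factor, fell as well (-3.92 ± 0.94, adjusted p = 0.0101, reduced fit -4.46), and so did Ccdc160 (-3.84 ± 0.48, adjusted p = 1.79e-04, reduced fit -4.25) and the antisense transcript Hoxaas2 (-4.29 ± 0.53, adjusted p = 1.60e-04, reduced fit -4.73). Atp2a1, Hoxaas2 and, among the highest genes, Nkx6-2 overlap an opposite-strand gene in over 10% of exon sequence, and their counts are uncertain because strand was not used.

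Wnt ligands and inhibitors both contained strong movers. Wnts signal through Frizzled receptors and Lrp5 or Lrp6 to stabilise beta-catenin, and Dkk and Sfrp proteins oppose them. Among Wnt ligands, 4 of 18 tested members rose, 4 fell and 10 did not pass (median log2 fold change -0.15). When NoDox_d2 replicate 1 was omitted, 8 were higher and 4 lower (median 0.87). Wnt2 was at 22.01, 23.5 and 22.1 CPM with doxycycline and 0.530, 0 and 0.0744 CPM without. Wnt8a, a ligand of the posterior epiblast and streak, was at 14.8, 16.03 and 12.7 CPM with doxycycline and 159, 111 and 137 CPM without. Both genes separated the groups, Wnt2 upwards (6.73 ± 0.66, adjusted p = 3.22e-05, reduced fit 9.02, adjusted p = 7.93e-07) and Wnt8a downwards (-3.22 ± 0.15, adjusted p = 1.36e-07, reduced fit -3.11, adjusted p = 7.12e-08). Against untreated replicates 2 and 3, Wnt2 held 1668 counts against 2, a ratio of 584 (95% interval 161 to 4823). Wnt3a, the ligand of the late streak and tail bud, was at 3.56, 2.77 and 2.43 CPM with doxycycline and 29.9, 5.61 and 4.31 CPM without. Untreated replicate 1 was far above all other libraries. The fall (log2 fold change -2.18 ± 0.63, adjusted p = 0.0240, reduced fit -0.77, adjusted p = 0.0768) was no longer called when D1Dox_d2 replicate 1, 2 or 3 or NoDox_d2 replicate 1 was left out (adjusted p from 0.0525 to 0.0867). Wnt5b had the same arrangement at 5.61, 5.25 and 5.76 CPM with doxycycline and 73.3, 6.32 and 7.36 CPM without (-2.39 ± 0.80, adjusted p = 0.0434, reduced fit -0.32, adjusted p = 0.527), and its call ended when D1Dox_d2 replicate 1, 2 or 3 or NoDox_d2 replicate 1 was left out (adjusted p from 0.105 to 0.527).

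Of Wnt inhibitors, 5 of 15 tested members of 16 listed rose, 3 fell and 7 did not pass (median log2 fold change 1.01e-04). The reduced fit had 4 higher and 4 lower, with a median of 0.11. Dkk1, the secreted Lrp6 antagonist of anterior tissue, was at 148, 157 and 134 CPM with doxycycline and 5.61, 3.32 and 5.02 CPM without. Sfrp2, a Wnt-binding secreted protein, was at 26.7, 25.1 and 28.5 CPM with doxycycline and 62.9, 278 and 265 CPM without. Dkk1 was the higher in every treated library and Sfrp2 the lower, with untreated replicate 1 between the groups for Sfrp2. The log2 fold changes were 4.97 ± 0.19 for Dkk1 (adjusted p = 3.87e-08, and 5.12 in the reduced fit with adjusted p = 5.12e-08) and -2.91 ± 0.63 for Sfrp2 (adjusted p = 0.00600, and -3.35 in the reduced fit with adjusted p = 6.14e-04), whose gene overlaps another on the opposite strand. Dkk2 (4.12 ± 0.81, adjusted p = 0.00334, reduced fit 5.84), Dkk3 (2.62 ± 0.14, adjusted p = 2.85e-07, reduced fit 2.72) and Wif1 (2.78 ± 0.54, adjusted p = 0.00307, reduced fit 3.91) rose. Among Wnt receptors and co-receptors, 7 of 22 tested members rose, 4 fell and 11 did not pass (median log2 fold change 0.04). In the reduced fit 7 were higher and 4 lower, with a median of 0.05. Fzd8 rose (1.82 ± 0.17, adjusted p = 2.01e-05, reduced fit 1.65) and Fzd10 fell (-1.28 ± 0.18, adjusted p = 4.37e-04, reduced fit -1.02). Of Wnt targets, 1 of 14 tested members of 15 listed rose, 4 fell and 9 did not pass (median log2 fold change -0.55). Shares of 7.14% higher and 28.6% lower stood against 14.9% and 13.4% over all genes. Without NoDox_d2 replicate 1 there were 3 higher and 4 lower at a median of -0.12. Cdx2, a caudal homeobox gene of the posterior axis, was at 8.67, 7.77 and 8.92 CPM with doxycycline and 241, 28.3 and 37.8 CPM without (-3.597 ± 0.88, adjusted p = 0.0110, reduced fit -1.98, adjusted p = 0.0247). Sp8 fell (-1.104 ± 0.21, adjusted p = 0.00303, reduced fit -0.79) and Tcf7l2, a nuclear effector of the pathway, rose (0.67 ± 0.13, adjusted p = 0.00276, reduced fit 0.78).

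FGF ligands moved in both directions. Among the ligands, 4 of 14 tested members of 15 listed rose, 4 fell and 6 did not pass (median log2 fold change 0.20). Counts in the reduced fit were 6 higher and 5 lower (median 0.18). Fgf3 was at 1.02, 0.814 and 0.650 CPM with doxycycline and 8.44, 4.98 and 4.95 CPM without (-2.87 ± 0.28, adjusted p = 2.80e-05, reduced fit -2.58, adjusted p = 1.08e-05). Fgf8, which drives cell migration from the streak, was at 36.1, 32.5 and 30.1 CPM with doxycycline and 113, 56.1 and 70.9 CPM without (-1.28 ± 0.32, adjusted p = 0.0133, reduced fit -0.96, adjusted p = 0.0259), and its call ended when D1Dox_d2 replicate 3 was left out (adjusted p = 0.0539). Fgf10, a ligand of mesenchyme, was at 24.4, 23.4 and 24.95 CPM with doxycycline and 2.15, 0.751 and 1.26 CPM without (4.11 ± 0.65, adjusted p = 9.36e-04, reduced fit 4.56, adjusted p = 8.04e-04). The groups did not overlap in these 3 genes, Fgf10 being higher in treated libraries and the others lower. Among FGF receptors, 1 of 5 tested members of 6 listed rose, 1 fell and 3 did not pass (median log2 fold change -0.31). With that library left out, 0 were higher and 2 lower (median -0.64). Fgfr1, the main receptor of the epiblast, fell (-0.72 ± 0.10, adjusted p = 2.91e-04, reduced fit -0.82). Of FGF feedback targets, 3 of 13 tested members of 15 listed rose, 3 fell and 7 did not pass (median log2 fold change -0.30). Leaving out NoDox_d2 replicate 1 gave 4 higher and 3 lower (median 0.04). Spry2, an inhibitor induced by FGF, fell (-1.31 ± 0.19, adjusted p = 5.24e-04, reduced fit -1.34), and Egr1, an immediate early factor, rose (1.51 ± 0.13, adjusted p = 1.43e-05, reduced fit 1.49).

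BMP and TGF-beta ligands contained more members that rose than fell. Among them, 8 of 17 tested members of 18 listed rose, 1 fell and 8 did not pass (median log2 fold change 0.95). Its members in the reduced fit were 11 higher and 1 lower, at a median of 1.302. Bmp2 was at 28.2, 29.05 and 30.4 CPM with doxycycline and 8.61, 10.4 and 9.67 CPM without. Tgfb3, which overlaps another gene on the opposite strand, was at 46.4, 44.7 and 54.2 CPM with doxycycline and 14.7, 9.68 and 7.44 CPM without. The groups did not overlap in either gene, with log2 fold changes of 1.61 ± 0.16 for Bmp2 (adjusted p = 3.12e-05, and 1.53 in the reduced fit with adjusted p = 5.35e-05) and 2.19 ± 0.37 for Tgfb3 (adjusted p = 0.00145, and 2.49 in the reduced fit with adjusted p = 7.46e-04). Gdf7 rose (3.58 ± 0.53, adjusted p = 5.79e-04, reduced fit 3.91) and Gdf10 fell (-2.11 ± 0.36, adjusted p = 0.00144, reduced fit -1.603). Of BMP inhibitors, 4 of 12 tested members of 13 listed rose, 1 fell and 7 did not pass (median log2 fold change 0.08). For the reduced fit these numbers were 5 higher and 1 lower (median 0.54). Bmper, a secreted BMP modulator, was at 20.5, 20.3 and 16.9 CPM with doxycycline and 3.81, 1.15 and 1.004 CPM without (3.27 ± 0.50, adjusted p = 7.83e-04, reduced fit 4.14). Bambi, a pseudoreceptor, rose (1.42 ± 0.23, adjusted p = 0.00113, reduced fit 1.38), and Sost, a secreted antagonist, fell (-3.21 ± 0.90, adjusted p = 0.0212, reduced fit -1.34, adjusted p = 0.0992), a call that ended when D1Dox_d2 replicate 1, 2 or 3 or NoDox_d2 replicate 1 was left out (adjusted p from 0.0588 to 0.0992). Of BMP targets, 4 of 13 tested members rose, 1 fell and 8 did not pass (median log2 fold change 0.66). On leaving out untreated replicate 1, 7 were higher and 1 lower, with a median of 1.29. Smad9, a BMP-specific SMAD, rose (2.88 ± 0.43, adjusted p = 6.32e-04, reduced fit 2.83), and Id2, a bHLH inhibitor, fell (-0.84 ± 0.26, adjusted p = 0.0324, reduced fit -1.16), a call that ended when D1Dox_d2 replicate 1, 2 or 3 or NoDox_d2 replicate 2 or 3 was left out (adjusted p from 0.0670 to 0.132).

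In the Notch pathway, in which Delta and Jagged ligands activate Hes and Hey repressors in neighbouring cells, ligands and targets moved in both directions. Among ligands and receptors, 1 of 14 tested members rose, 3 fell and 10 did not pass (median log2 fold change -0.12). Their share called was close to the 28.4% over all genes, and the share that rose (7.14%) was under the 14.9% over all genes. By the reduced fit, 1 rose and 4 fell (median -0.04). Jag1 was at 198, 199.9 and 204 CPM with doxycycline and 47.5, 71.6 and 60.7 CPM without. Dll1 was at 14.5, 10.5 and 11.9 CPM with doxycycline and 56.03, 38.5 and 33.1 CPM without. Jag1 was higher in every treated library (1.74 ± 0.16, adjusted p = 1.87e-05, reduced fit 1.59, adjusted p = 1.47e-05) and Dll1 lower (-1.79 ± 0.22, adjusted p = 1.57e-04, reduced fit -1.55, adjusted p = 1.03e-04). Of Notch targets, 5 of 12 tested members of 13 listed rose, 4 fell and 3 did not pass (median log2 fold change 0.36). From the reduced fit came 5 higher and 5 lower members (median 0.12). Besides Hes3, Hes7, the somite clock repressor, fell (-4.22 ± 1.03, adjusted p = 0.0110, reduced fit -2.02), as did Nrarp (-1.77 ± 0.34, adjusted p = 0.00303, reduced fit -1.89), a feedback inhibitor. Hes7 and Nrarp both overlap a gene on the opposite strand. Hey1 (1.15 ± 0.22, adjusted p = 0.00304, reduced fit 0.93), Hey2 (1.702 ± 0.41, adjusted p = 0.00981, reduced fit 1.77) and Heyl (2.36 ± 0.41, adjusted p = 0.00177, reduced fit 2.31) rose.

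In the Hedgehog pathway, 2 of 12 tested members of 14 listed rose, 3 fell and 7 did not pass (median log2 fold change -0.14). When NoDox_d2 replicate 1 was omitted, 3 were higher and 4 lower (median -0.00341). Hhip, the decoy receptor of Hedgehog ligands, was at 80.6, 84.004 and 93.1 CPM with doxycycline and 2.12, 1.74 and 1.82 CPM without. Gas1, a co-receptor, was at 15.8, 14.7 and 14.7 CPM with doxycycline and 39.05, 86.1 and 85.2 CPM without. Hhip was far higher with doxycycline in all libraries (5.498 ± 0.27, adjusted p = 1.73e-07, reduced fit 5.58, adjusted p = 6.21e-07), and Gas1, which overlaps a gene on the opposite strand, was lower (-2.22 ± 0.26, adjusted p = 1.14e-04, reduced fit -2.52, adjusted p = 7.19e-07). Gli2, a transcriptional effector, fell (-0.86 ± 0.14, adjusted p = 0.00137, reduced fit -1.01), and Disp1, which releases the ligand, rose (1.37 ± 0.23, adjusted p = 0.00125, reduced fit 1.53).

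Genes of retinoic acid handling were among the largest falls. Retinoic acid is made by Aldh1a enzymes, degraded by Cyp26 enzymes and bound in the cell by Crabp proteins, and it activates anterior Hox genes. In this list, 2 of 15 tested members rose, 5 fell and 8 did not pass (median log2 fold change -0.37). The reduced fit had 4 higher and 5 lower, with a median of -0.58. Cyp26b1 was at 2.08, 2.81 and 2.82 CPM with doxycycline and 5.12, 105 and 76.97 CPM without. Cyp26c1 was at 0.189, 0.366 and 0.260 CPM with doxycycline and 1.09, 8.81 and 8.40 CPM without. Aldh1a2, the synthetic enzyme of mesoderm, was at 0.795, 1.10 and 0.996 CPM with doxycycline and 37.1, 5.45 and 6.02 CPM without. Treated libraries were lowest in all 3 genes. Untreated replicate 1 was closer to the treated than to the other untreated libraries for both Cyp26 genes and the highest library for Aldh1a2. The log2 fold changes were -4.601 ± 1.03 for Cyp26b1 (adjusted p = 0.00703, and -5.16 in the reduced fit with adjusted p = 3.16e-04), -4.47 ± 0.72 for Cyp26c1 (adjusted p = 0.00108, and -4.98 in the reduced fit with adjusted p = 3.88e-06) and -4.07 ± 0.79 for Aldh1a2 (adjusted p = 0.00316, and -2.59 in the reduced fit with adjusted p = 0.00179), and without NoDox_d2 replicate 2 that of Cyp26b1 was -4.01. Crabp2 fell (-2.42 ± 0.38, adjusted p = 9.04e-04, reduced fit -2.798). Crabp1 was at 366, 335 and 297 CPM with doxycycline and 138, 2234 and 2012 CPM without, with untreated replicate 1 the lowest of all libraries, and was called only in the reduced fit (-2.14 ± 0.81, adjusted p = 0.0681, reduced fit -2.69, adjusted p = 0.00241). Crabp1 was named, and Cyp26b1 also, for the distance of untreated replicate 1 below the other untreated libraries. Aldh1a1, another synthetic enzyme, rose from near the limit of counting (2.35, 2.97 and 3.03 CPM with doxycycline and 0.177, 0 and 0 CPM without, 5.39 ± 0.77, adjusted p = 4.37e-04, reduced fit 9.15).

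Anterior Hox genes, which pattern the hindbrain and anterior somites, fell with doxycycline wherever they were called. Of these, 0 of 15 tested members rose (edgeR, with 0 higher at an unadjusted p under 0.05 and 0 with DESeq2), 9 fell and 6 did not pass (median log2 fold change -1.27). In the reduced fit 0 were higher and 9 lower, with a median of -1.45. Hoxb1 was at 23.5, 21.2 and 20.9 CPM with doxycycline and 79.1, 73.4 and 75.1 CPM without. Hoxa2 was at 6.97, 5.33 and 5.89 CPM with doxycycline and 16.7, 32.5 and 30.3 CPM without. Every treated library was below every untreated one in both genes, with log2 fold changes of -1.79 ± 0.13 for Hoxb1 (adjusted p = 4.06e-06, and -1.78 in the reduced fit with adjusted p = 7.13e-06) and -2.12 ± 0.27 for Hoxa2 (adjusted p = 2.27e-04, and -2.38 in the reduced fit with adjusted p = 1.62e-05). Hoxa3 (-1.42 ± 0.18, adjusted p = 1.83e-04, reduced fit -1.53) and Hoxa4 (-1.27 ± 0.19, adjusted p = 6.14e-04, reduced fit -1.24) also fell. Hoxa3 and Hoxa4 overlap a gene on the opposite strand, and Hoxa2 overlaps one on its own. Hoxd3 held 2 counts with doxycycline against 103 without, a ratio of 47.9 (95% interval 12.9 to 401), and its fitted log2 fold change was -5.33. Among central and posterior Hox genes, 1 of 19 tested members of 24 listed rose, 0 fell (edgeR, with 1 lower at an unadjusted p under 0.05 and 1 with DESeq2) and 18 did not pass (median log2 fold change -0.52). At 5.26%, the share that rose was under the 14.9% over all genes. Without NoDox_d2 replicate 1 there were 2 higher and 0 lower at a median of -0.19. With all libraries the single call was Hoxb13 (1.45 ± 0.45, adjusted p = 0.0324, reduced fit 2.37), which ended when D1Dox_d2 replicate 1 or 3 or NoDox_d2 replicate 2 or 3 was left out (adjusted p from 0.0805 to 0.112). Whether anterior and posterior Hox genes differed in their response was not tested.

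Pluripotency genes moved in both directions. Pou5f1 and Nanog maintain pluripotency, and Esrrb, Nr0b1, Klf4 and Tfcp2l1 are typical of the naive state that precedes the epiblast. Among general and primed pluripotency genes, 1 of 19 tested members rose, 9 fell and 9 did not pass (median log2 fold change -0.58). Counts in the reduced fit were 1 higher and 10 lower (median -0.61). Dnmt3b, the de novo DNA methyltransferase of the epiblast, was at 80.2, 83.4 and 73.5 CPM with doxycycline and 217, 264 and 293 CPM without. Sox3 was at 7.35, 6.35 and 6.15 CPM with doxycycline and 63.1, 50.6 and 48.2 CPM without. Both fell without overlap, with log2 fold changes of -1.71 ± 0.13 for Dnmt3b (adjusted p = 4.60e-06, and -1.83 in the reduced fit with adjusted p = 1.01e-06) and -3.03 ± 0.17 for Sox3 (adjusted p = 6.33e-07, and -2.91 in the reduced fit with adjusted p = 5.96e-07). Of naive genes, 4 of 14 tested members of 18 listed rose, 3 fell and 7 did not pass (median log2 fold change -0.00594). With that library left out, 6 were higher and 3 lower (median 0.86). Esrrb, an orphan nuclear receptor, was at 80.9, 97.8 and 90.5 CPM with doxycycline and 4.66, 3.08 and 3.35 CPM without. Nanog was at 36.7, 38.8 and 36.3 CPM with doxycycline and 164, 249 and 253 CPM without. Nr5a2, a nuclear receptor that activates Pou5f1, was at 3.07, 2.73 and 3.29 CPM with doxycycline and 16.4, 23.6 and 18.4 CPM without. Esrrb was higher in every treated library (4.597 ± 0.18, adjusted p = 3.87e-08, reduced fit 4.79, adjusted p = 1.07e-08), and Nanog (-2.57 ± 0.31, adjusted p = 1.45e-04, reduced fit -2.76, adjusted p = 5.57e-05) and Nr5a2 (-2.68 ± 0.24, adjusted p = 1.66e-05, reduced fit -2.803, adjusted p = 9.01e-06) were lower. Nr0b1, an orphan receptor of the naive state, rose (3.904 ± 0.30, adjusted p = 5.88e-06, reduced fit 4.12).

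Of germ cell genes, 0 of 9 tested members of 12 listed rose (edgeR, with 0 higher at an unadjusted p under 0.05 and 0 with DESeq2), 6 fell and 3 did not pass (median log2 fold change -1.103). Leaving out NoDox_d2 replicate 1 gave 0 higher and 6 lower (median -0.83). Kit, the receptor of migrating germ cells and many progenitors, was at 38.4, 41.8 and 40.98 CPM with doxycycline and 103, 81.03 and 76.2 CPM without (-1.103 ± 0.19, adjusted p = 0.00136, reduced fit -0.97). Ifitm3 fell as well (-0.87 ± 0.11, adjusted p = 2.43e-04, reduced fit -0.96). Of DNA methylation and demethylation genes, 2 of 16 tested members of 17 listed rose, 4 fell and 10 did not pass (median log2 fold change -0.23). Its members in the reduced fit were 2 higher and 7 lower, at a median of -0.21. Uhrf2 fell (-0.59 ± 0.11, adjusted p = 0.00267, reduced fit -0.46). Tet2, a methylcytosine dioxygenase, rose (0.75 ± 0.19, adjusted p = 0.0130, reduced fit 0.69), a call that ended when D1Dox_d2 replicate 3 or NoDox_d2 replicate 3 was left out (adjusted p from 0.0512 to 0.0637).

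Several early neural plate genes fell in treated libraries. Among SoxB, Zic and Pou3 factors, 1 of 17 tested members of 19 listed rose, 6 fell and 10 did not pass (median log2 fold change -1.08). For the reduced fit these numbers were 1 higher and 10 lower (median -1.23). In 15 of the 17 members NoDox_d2 replicate 1 lay below both other untreated libraries. Zic1, a zinc finger gene of dorsal neural tissue, was at 2.01, 1.38 and 2.47 CPM with doxycycline and 12.9, 78.97 and 60.02 CPM without. It was lowest in the treated libraries, with untreated replicate 1 between them and the other untreated ones, and the log2 fold change was -4.69 ± 0.75 (adjusted p = 9.55e-04), and -5.16 in the reduced fit (adjusted p = 6.60e-05). Zic4 also fell (-4.97 ± 1.01, adjusted p = 0.00408, reduced fit -5.46), and its value was -6.25 without D1Dox_d2 replicate 3. Hesx1, a paired-like repressor of the anterior neural plate, was the member that rose. It was at 1.44, 0.976 and 1.30 CPM with doxycycline and 0.177, 0.0791 and 0.335 CPM without (2.62 ± 0.65, adjusted p = 0.0124, reduced fit 2.53, adjusted p = 0.0206), its call ended when NoDox_d2 replicate 2 was left out (adjusted p = 0.0521), and the value was 3.20 without NoDox_d2 replicate 3.

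**Figure D3:**
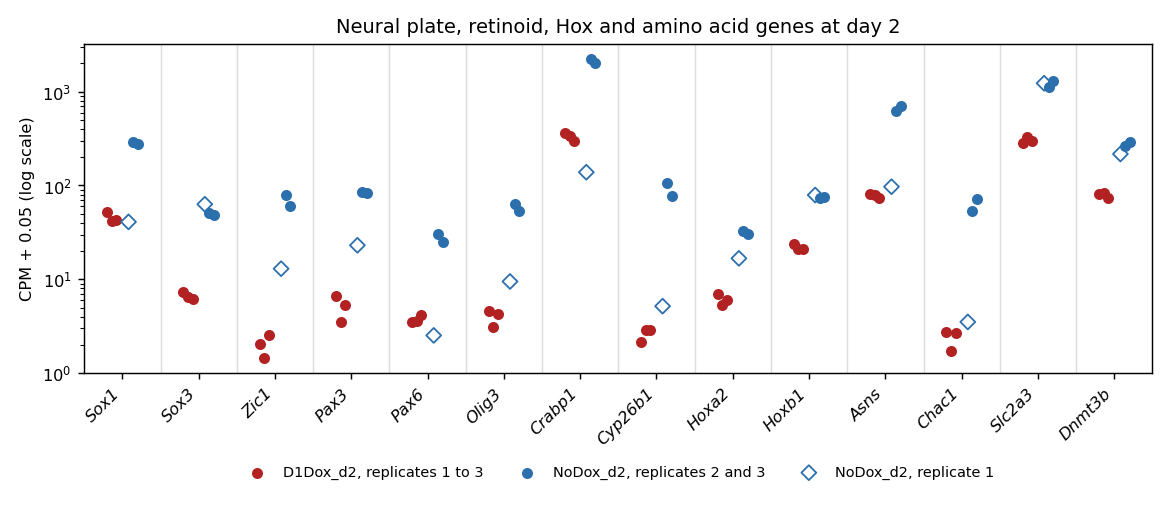
CPM plus 0.05 on a log axis for 14 genes of the neural plate, retinoic acid handling, Hox clusters, amino acid response and epiblast in each day 2 library, with symbols as in the plot of streak genes. Red circles lie below the filled blue circles in all 14 genes, and the open diamond of NoDox_d2 replicate 1 lies at or below the red circles for Sox1, Pax6 and Crabp1.

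Patterning factors of the neural tube moved in both directions. Of Pax, Engrailed, Gbx and Nkx factors, 4 of 20 tested members rose, 4 fell and 12 did not pass (median log2 fold change -0.31). On leaving out untreated replicate 1, 5 were higher and 8 lower, with a median of -0.47. Pax3, a dorsal neural and somite gene, was at 6.63, 3.42 and 5.24 CPM with doxycycline and 22.98, 85.1 and 84.04 CPM without. Nkx6-1, a ventral neural tube repressor, was at 219, 197 and 189.8 CPM with doxycycline and 4.10, 20.6 and 15.6 CPM without. Pax8, of the mid-hindbrain boundary and the otic and renal fields, was at 8.90, 6.92 and 6.71 CPM with doxycycline and 0.212, 0.791 and 0.855 CPM without. Pax3 was lower in all treated libraries (-3.65 ± 0.51, adjusted p = 3.96e-04, reduced fit -4.06, adjusted p = 1.23e-05), while Nkx6-1 (3.91 ± 0.42, adjusted p = 6.35e-05, reduced fit 3.47, adjusted p = 8.68e-08) and Pax8 (3.601 ± 0.52, adjusted p = 5.13e-04, reduced fit 3.17, adjusted p = 3.52e-04) were higher. Nkx6-2 rose as well (6.84 ± 0.66, adjusted p = 2.80e-05, reduced fit 6.69), and Lmx1a, of the roof plate, fell (-2.14 ± 0.53, adjusted p = 0.0120, reduced fit -2.35), a call that ended when D1Dox_d2 replicate 2 was left out (adjusted p = 0.0509). Pax6 was at 3.48, 3.58 and 4.16 CPM with doxycycline and 2.47, 30.6 and 25.2 CPM without (-2.37 ± 0.82, adjusted p = 0.0497, reduced fit -2.91, adjusted p = 0.00376), with untreated replicate 1 below the treated libraries, and its call ended when D1Dox_d2 replicate 1, 2 or 3 or NoDox_d2 replicate 2 or 3 was left out (adjusted p from 0.121 to 0.155).

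Among proneural and Olig factors, 7 of 18 tested members of 20 listed rose, 3 fell and 8 did not pass (median log2 fold change 0.63). By the reduced fit, 7 rose and 3 fell (median 0.64). Bhlhe22, a repressor in differentiating neurons, was at 72.2, 64.4 and 74.6 CPM with doxycycline and 7.98, 2.69 and 2.71 CPM without. Neurod4, a proneural bHLH gene, was at 111, 76.6 and 84.4 CPM with doxycycline and 1.55, 15.2 and 11.3 CPM without. Olig3, a dorsal progenitor gene, was at 4.58, 3.05 and 4.25 CPM with doxycycline and 9.43, 62.7 and 52.9 CPM without. The first pair was higher in every treated library, with log2 fold changes of 3.97 ± 0.35 for Bhlhe22 (adjusted p = 1.43e-05, and 4.69 in the reduced fit with adjusted p = 7.37e-09) and 3.28 ± 0.56 for Neurod4 (adjusted p = 0.00144, and 2.76 in the reduced fit with adjusted p = 2.11e-05), and Olig3 was lower (-3.39 ± 0.58, adjusted p = 0.00145, reduced fit -3.88, adjusted p = 5.85e-06). Neurog2 also rose (2.46 ± 0.34, adjusted p = 3.85e-04, reduced fit 2.096). Ptf1a, which overlaps another gene, held 34 counts against 1, a ratio of 36.6 (95% interval 6.13 to 1486), and its fitted log2 fold change of 4.74 was 6.57 without NoDox_d2 replicate 3.

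Most LIM and neuron subtype factors tested rose. Here 13 of 22 tested members rose, 2 fell and 7 did not pass (median log2 fold change 1.58). From the reduced fit came 13 higher and 2 lower members (median 1.296). Lmo1, a LIM-only cofactor, was at 181, 162 and 144 CPM with doxycycline and 0.388, 1.70 and 1.04 CPM without. Tlx2, a homeobox gene of neural crest derivatives and enteric neurons, was at 24.8, 32.4 and 30.5 CPM with doxycycline and 0.953, 0.119 and 0.409 CPM without. Treated libraries were far above untreated ones in both, with log2 fold changes of 7.296 ± 0.35 for Lmo1 (adjusted p = 1.51e-07, and 6.88 in the reduced fit with adjusted p = 2.11e-08) and 5.85 ± 0.46 for Tlx2 (adjusted p = 6.30e-06, and 6.73 in the reduced fit with adjusted p = 7.19e-07). Otp, a homeobox gene of hypothalamic neurons, held 174 counts with doxycycline and 0 without, and was at least 62.4-fold higher against a floor of 3 counts over the group. Lhx5 fell (-2.27 ± 0.65, adjusted p = 0.0231, reduced fit -2.76), a call that ended when D1Dox_d2 replicate 2 or 3 or NoDox_d2 replicate 2 or 3 was left out (adjusted p from 0.0785 to 0.0874).

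Genes for neuronal structure and peptide signalling included many that rose. Among neuron structure genes, 8 of 20 tested members rose, 0 fell (edgeR, with 1 lower at an unadjusted p under 0.05 and 1 with DESeq2) and 12 did not pass (median log2 fold change 0.59). When NoDox_d2 replicate 1 was omitted, 7 were higher and 1 lower (median 0.58). Prph, the intermediate filament peripherin, was at 31.7, 30.6 and 28.3 CPM with doxycycline and 4.17, 3.16 and 3.27 CPM without (3.09 ± 0.20, adjusted p = 1.53e-06, reduced fit 3.22), and Syt1, a synaptic vesicle calcium sensor, rose (3.68 ± 0.35, adjusted p = 2.65e-05, reduced fit 3.73). Of neuropeptide genes, 7 of 17 tested members of 24 listed rose, 1 fell and 9 did not pass (median log2 fold change 1.48). The reduced fit had 8 higher and 2 lower, with a median of 0.99. Vip, the precursor of vasoactive intestinal peptide, was at 111, 93.03 and 117 CPM with doxycycline and 0.212, 0.0791 and 0.186 CPM without. Penk, the enkephalin precursor, was at 944, 834 and 979.7 CPM with doxycycline and 36.9, 14.1 and 15.5 CPM without. Both were far above every untreated library in all treated ones. Tac1, the substance P precursor, was at 28.7, 24.5 and 27.6 CPM with doxycycline and 0.530, 0 and 0.186 CPM without. Grp, gastrin-releasing peptide, was at 10.7, 11.7 and 11.004 CPM with doxycycline and 0, 0.158 and 0 CPM without. Treated libraries were again all above untreated ones. The log2 fold changes were 9.33 ± 0.25 for Vip (adjusted p = 1.05e-09, and 9.57 in the reduced fit with adjusted p = 5.12e-09), 5.37 ± 0.37 for Penk (adjusted p = 2.26e-06, and 5.94 in the reduced fit with adjusted p = 5.64e-08), 6.75 ± 0.65 for Tac1 (adjusted p = 2.75e-05, and 8.06 in the reduced fit with adjusted p = 4.60e-06) and 7.66 ± 0.84 for Grp (adjusted p = 7.24e-05, and 7.08 in the reduced fit with adjusted p = 6.35e-05). Without NoDox_d2 replicate 2, which held the only untreated counts of Grp, its value was 11.17. Penk overlaps a gene on the opposite strand.

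Genes of peptide processing were partly higher. Among secretory granule genes, 7 of 16 tested members rose, 2 fell and 7 did not pass (median log2 fold change 0.88). In the reduced fit 9 were higher and 4 lower, with a median of 1.17. Pam, which amidates peptides, was at 158, 154 and 173 CPM with doxycycline and 79.02, 59.5 and 58.5 CPM without (1.299 ± 0.13, adjusted p = 3.75e-05, reduced fit 1.44), and Vgf (1.504 ± 0.20, adjusted p = 2.92e-04, reduced fit 1.44) and Scg2 (3.405 ± 0.52, adjusted p = 7.39e-04, reduced fit 3.09), a pair of granule proteins, rose. Pcsk1, a prohormone convertase, was at 1.40, 1.67 and 1.39 CPM with doxycycline and 5.01, 4.35 and 5.28 CPM without and fell (-1.71 ± 0.27, adjusted p = 0.00100, reduced fit -1.71).

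Of neurotransmitter receptor genes, 16 of 33 tested members of 36 listed rose, 1 fell and 16 did not pass (median log2 fold change 1.19). Without NoDox_d2 replicate 1 there were 20 higher and 3 lower at a median of 1.34. Htr3a, a subunit of the serotonin-gated channel, was at 68.3, 68.5 and 78.4 CPM with doxycycline and 0.282, 3.91 and 4.42 CPM without. Chrna7, a nicotinic acetylcholine receptor subunit, was at 20.9, 24.6 and 30.1 CPM with doxycycline and 4.84, 5.22 and 3.16 CPM without. Both were higher in every treated library, with log2 fold changes of 4.65 ± 0.56 for Htr3a (adjusted p = 1.41e-04, and 4.09 in the reduced fit with adjusted p = 6.62e-09) and 2.52 ± 0.27 for Chrna7 (adjusted p = 7.31e-05, and 2.58 in the reduced fit with adjusted p = 1.15e-04). Htr3b, which encodes the partner subunit of Htr3a, was at 8.75, 7.20 and 7.28 CPM with doxycycline and 0, 0.0395 and 0 CPM without, or 576 counts against 1, a ratio of 619 (95% interval 111 to 24500). Its fitted log2 fold change of 8.81 was 10.64 without NoDox_d2 replicate 2. Gabra3, a GABA receptor subunit, was at 1.67, 1.46 and 0.953 CPM with doxycycline and 5.51, 6.36 and 5.91 CPM without and was the member that fell (-2.11 ± 0.26, adjusted p = 1.51e-04, reduced fit -2.18).

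**Figure D4:**
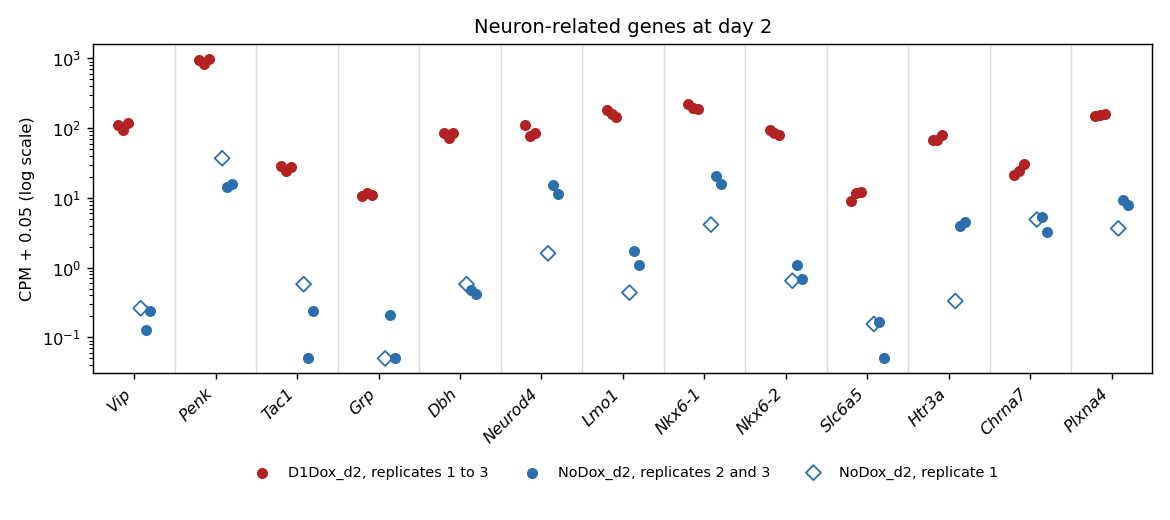
CPM plus 0.05 on a log axis for 13 neuron-related genes in each day 2 library, with symbols as in the plot of streak genes. Every red circle lies above every blue symbol in all 13 genes, and the open diamond lies below the filled blue circles for Neurod4, Lmo1, Nkx6-1, Nkx6-2, Htr3a and Plxna4.

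The promoters of a few named genes are shown because Mixl1 belongs to the paired-like homeodomain class, whose dimers bind inverted repeats of the letters TAAT. The motif TAATNNNATTA, which reads the same on both strands, was found in the 250 bases before the start of 30 of 12272 tested genes with a RefSeq promoter entry (0.244%), of 9 of 1898 that rose (0.474%) and of 5 of 1808 that fell (0.277%). The shorter TAATNNATTA was in 23 (0.187%), 2 (0.105%) and 3 (0.166%), and TAATCC, on either strand, in 6.31%, 5.64% and 7.02%. TAATNNATTA and TAATNNNATTA differ in spacing and can both be present at overlapping places. The numbers for the palindromes are small, and a match is a description of letters, not of binding. Of 312 genes chosen for the text, 234 had a promoter entry, and 3 of those held TAATNNNATTA: Htr3b, Hesx1 and Rdh11, a retinol dehydrogenase gene that rose (0.59 ± 0.19, adjusted p = 0.0367, reduced fit 0.35) in a call that ended when D1Dox_d2 replicate 1, 2 or 3 or NoDox_d2 replicate 3 was left out (adjusted p from 0.0592 to 0.104). The windows of Htr3b (chr9:48964991-48965240, minus strand) and Hesx1 (chr14:27000112-27000361, plus strand) are given 5′ to 3′ from GRCm38.p6, with the motif in capitals. It began 240 bases before the RefSeq start of Htr3b and 149 before a RefSeq start of Hesx1. The Hesx1 window lies inside the gene as counted (26994416 to 27002329), and that of Rdh11 likewise lies inside its gene.
Htr3b: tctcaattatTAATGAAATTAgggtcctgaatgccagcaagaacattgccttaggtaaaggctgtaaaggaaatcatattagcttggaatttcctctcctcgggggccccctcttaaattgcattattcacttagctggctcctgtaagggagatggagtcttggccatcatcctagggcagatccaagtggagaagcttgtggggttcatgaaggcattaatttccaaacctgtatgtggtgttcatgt
Hesx1: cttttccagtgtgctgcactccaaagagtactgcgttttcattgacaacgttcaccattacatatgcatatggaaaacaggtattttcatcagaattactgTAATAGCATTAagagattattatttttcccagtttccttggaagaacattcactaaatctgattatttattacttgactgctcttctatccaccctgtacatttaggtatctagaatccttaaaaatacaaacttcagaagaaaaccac

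Axon guidance genes contained both directions. Among ligands, 7 of 25 tested members rose, 4 fell and 14 did not pass (median log2 fold change -0.22). Counts in the reduced fit were 6 higher and 7 lower (median 0.09). Netrin-1 (Ntn1), which attracts or repels growing axons, was at 144, 132 and 131 CPM with doxycycline and 22.3, 12.3 and 12.3 CPM without. Efnb1, a membrane-bound ephrin, was at 56.9, 57.3 and 59.3 CPM with doxycycline and 108, 192 and 193 CPM without. Ntn1 was higher with doxycycline (3.11 ± 0.42, adjusted p = 3.09e-04, reduced fit 3.45, adjusted p = 2.14e-04) and Efnb1 lower (-1.51 ± 0.18, adjusted p = 1.39e-04, reduced fit -1.75, adjusted p = 2.26e-07), without overlap. Slit2 rose (1.96 ± 0.24, adjusted p = 1.71e-04, reduced fit 2.13) and Efnb2 fell (-1.19 ± 0.19, adjusted p = 9.59e-04, reduced fit -1.36). Of receptors, 9 of 27 tested members rose, 3 fell and 15 did not pass (median log2 fold change 0.02). With that library left out, 10 were higher and 5 lower (median 0.00528). Plxna4, a semaphorin receptor, was at 148, 155 and 159.9 CPM with doxycycline and 3.60, 9.29 and 7.96 CPM without. Epha3 was at 37.1, 40.5 and 47.6 CPM with doxycycline and 1.20, 0.553 and 0.595 CPM without. Epha1, an ephrin receptor of the streak, was at 7.35, 8.71 and 7.54 CPM with doxycycline and 159, 32.4 and 45.03 CPM without. Plxna4 (4.48 ± 0.37, adjusted p = 9.07e-06, reduced fit 4.15, adjusted p = 4.60e-06) and Epha3 (5.72 ± 0.51, adjusted p = 1.74e-05, reduced fit 6.16, adjusted p = 2.11e-05) were higher in every treated library, and Epha1 (-3.33 ± 0.51, adjusted p = 7.32e-04, reduced fit -2.31, adjusted p = 2.92e-05) was lower, its untreated replicate 1 far above all others.

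Cadherins, the calcium-dependent adhesion molecules, rose more often than they fell. Of cadherins, 7 of 17 tested members of 18 listed rose, 1 fell and 9 did not pass (median log2 fold change 0.57). Leaving out NoDox_d2 replicate 1 gave 8 higher and 1 lower (median 1.45). E-cadherin (Cdh1) was at 38.6, 42.8 and 39.2 CPM with doxycycline and 131, 64.5 and 69.6 CPM without. Cdh6 was at 367, 349 and 433 CPM with doxycycline and 51.8, 63.4 and 57.3 CPM without. Cdh12 was at 9.13, 7.73 and 10.5 CPM with doxycycline and 0.141, 0.435 and 0.112 CPM without. Cdh1 was lower in every treated library (-1.14 ± 0.24, adjusted p = 0.00540, reduced fit -0.75, adjusted p = 0.00282), and Cdh6 (2.74 ± 0.18, adjusted p = 1.78e-06, reduced fit 2.65, adjusted p = 5.70e-06) and Cdh12 (5.31 ± 0.34, adjusted p = 1.73e-06, reduced fit 5.05, adjusted p = 2.48e-06) were higher. Without NoDox_d2 replicate 2 the value of Cdh12 was 6.11. Among epithelial junction and keratin genes, 2 of 25 tested members of 26 listed rose, 4 fell and 19 did not pass (median log2 fold change -0.35). Its members in the reduced fit were 4 higher and 4 lower, at a median of -0.25. With all libraries the share called was near that over all genes. Grhl2, a regulator of epithelial identity, fell (-1.996 ± 0.26, adjusted p = 2.54e-04, reduced fit -1.89), and Krt18 rose (1.51 ± 0.28, adjusted p = 0.00261, reduced fit 1.93).

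Of surface ectoderm and neural border factors, 9 of 22 tested members of 23 listed rose, 2 fell and 11 did not pass (median log2 fold change 1.21). For the reduced fit these numbers were 12 higher and 2 lower (median 1.71). Gata3 was at 29.5, 34.3 and 35.7 CPM with doxycycline and 4.41, 3.44 and 2.68 CPM without. Tfap2b, an AP-2 factor of neural crest, was at 24.2, 18.2 and 26.9 CPM with doxycycline and 4.20, 3.56 and 2.75 CPM without. Treated libraries were higher without overlap in both, with log2 fold changes of 3.24 ± 0.28 for Gata3 (adjusted p = 1.43e-05, and 3.43 in the reduced fit with adjusted p = 1.37e-05) and 2.72 ± 0.37 for Tfap2b (adjusted p = 3.18e-04, and 2.86 in the reduced fit with adjusted p = 4.43e-04). Trp63, the regulator of stratified epithelium, was at 4.05, 3.13 and 3.21 CPM with doxycycline and 0.741, 0.316 and 0.595 CPM without (2.64 ± 0.36, adjusted p = 3.10e-04, reduced fit 2.895). Tfap2c, an AP-2 factor of germ cells and trophoblast, fell (-1.28 ± 0.35, adjusted p = 0.0189, reduced fit -0.87), a call that ended when D1Dox_d2 replicate 1, 2 or 3 was left out (adjusted p from 0.0539 to 0.0675).

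Matrix and mesenchymal genes were among those that rose, as were the fibroblast markers. In the list of EMT factors and effectors, 10 of 19 tested members rose, 0 fell (edgeR, with 0 lower at an unadjusted p under 0.05 and 0 with DESeq2) and 9 did not pass (median log2 fold change 1.04). On leaving out untreated replicate 1, 10 were higher and 1 lower, with a median of 1.35. Itga5, the fibronectin receptor subunit, was at 267, 297 and 285 CPM with doxycycline and 94.2, 86.2 and 89.9 CPM without. Tgfbi, a TGF-beta-induced matrix protein, was at 241, 267 and 230.1 CPM with doxycycline and 13.03, 16.01 and 14.9 CPM without. The groups were well apart, with log2 fold changes of 1.65 ± 0.12 for Itga5 (adjusted p = 3.34e-06, and 1.67 in the reduced fit with adjusted p = 8.49e-06) and 4.07 ± 0.51 for Tgfbi (adjusted p = 1.90e-04, and 3.98 in the reduced fit with adjusted p = 5.15e-04). Of basement membrane and integrin genes, 15 of 27 tested members rose, 1 fell and 11 did not pass (median log2 fold change 0.94). By the reduced fit, 19 rose and 2 fell (median 1.04). Lamc1, a laminin chain, was at 463, 556 and 556 CPM with doxycycline and 237, 249 and 229 CPM without (1.14 ± 0.14, adjusted p = 1.89e-04, reduced fit 1.12), and Itga6, an epithelial laminin receptor subunit, was the member that fell (-0.35 ± 0.10, adjusted p = 0.0192, reduced fit -0.42), in a call that ended when D1Dox_d2 replicate 1 or NoDox_d2 replicate 2 or 3 was left out (adjusted p from 0.0632 to 0.0759). Of fibroblast feeder and smooth muscle markers, 14 of 22 tested members rose, 2 fell and 6 did not pass (median log2 fold change 2.03). From the reduced fit came 16 higher and 1 lower members (median 2.395). The smooth muscle marker Myh11 fell (-1.89 ± 0.55, adjusted p = 0.0240, reduced fit -1.27, adjusted p = 0.0616). Cnn1, another such marker, fell too (-0.82 ± 0.25, adjusted p = 0.0297, reduced fit -1.025, adjusted p = 0.00479). Neither call held throughout when single libraries were omitted, with adjusted p up to 0.0826 for Myh11 and 0.109 for Cnn1. Col1a2, a collagen I chain, was at 649, 647 and 786 CPM with doxycycline and 73.8, 70.2 and 61.1 CPM without. Postn, the matrix protein periostin, was at 75.99, 67.2 and 94.4 CPM with doxycycline and 6.74, 7.71 and 8.74 CPM without. Both were higher in every treated library, with log2 fold changes of 3.34 ± 0.13 for Col1a2 (adjusted p = 4.54e-08, and 3.39 in the reduced fit with adjusted p = 1.18e-07) and 3.36 ± 0.29 for Postn (adjusted p = 1.42e-05, and 3.25 in the reduced fit with adjusted p = 3.40e-05). Beside these, Xist, which overlaps a gene on the opposite strand, was at 12.1, 15.9 and 19.7 CPM with doxycycline and 2.01, 1.38 and 1.004 CPM without (3.43 ± 0.47, adjusted p = 3.23e-04, reduced fit 3.72) and the Y-linked Eif2s3y at 1.63, 1.42 and 0.780 CPM with doxycycline and 0.247, 0.0395 and 0.149 CPM without (3.08 ± 0.60, adjusted p = 0.00336, reduced fit 3.67). The part of fibroblast RNA in the mesenchymal, matrix and endothelial values was not tested.

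**Figure D5:**
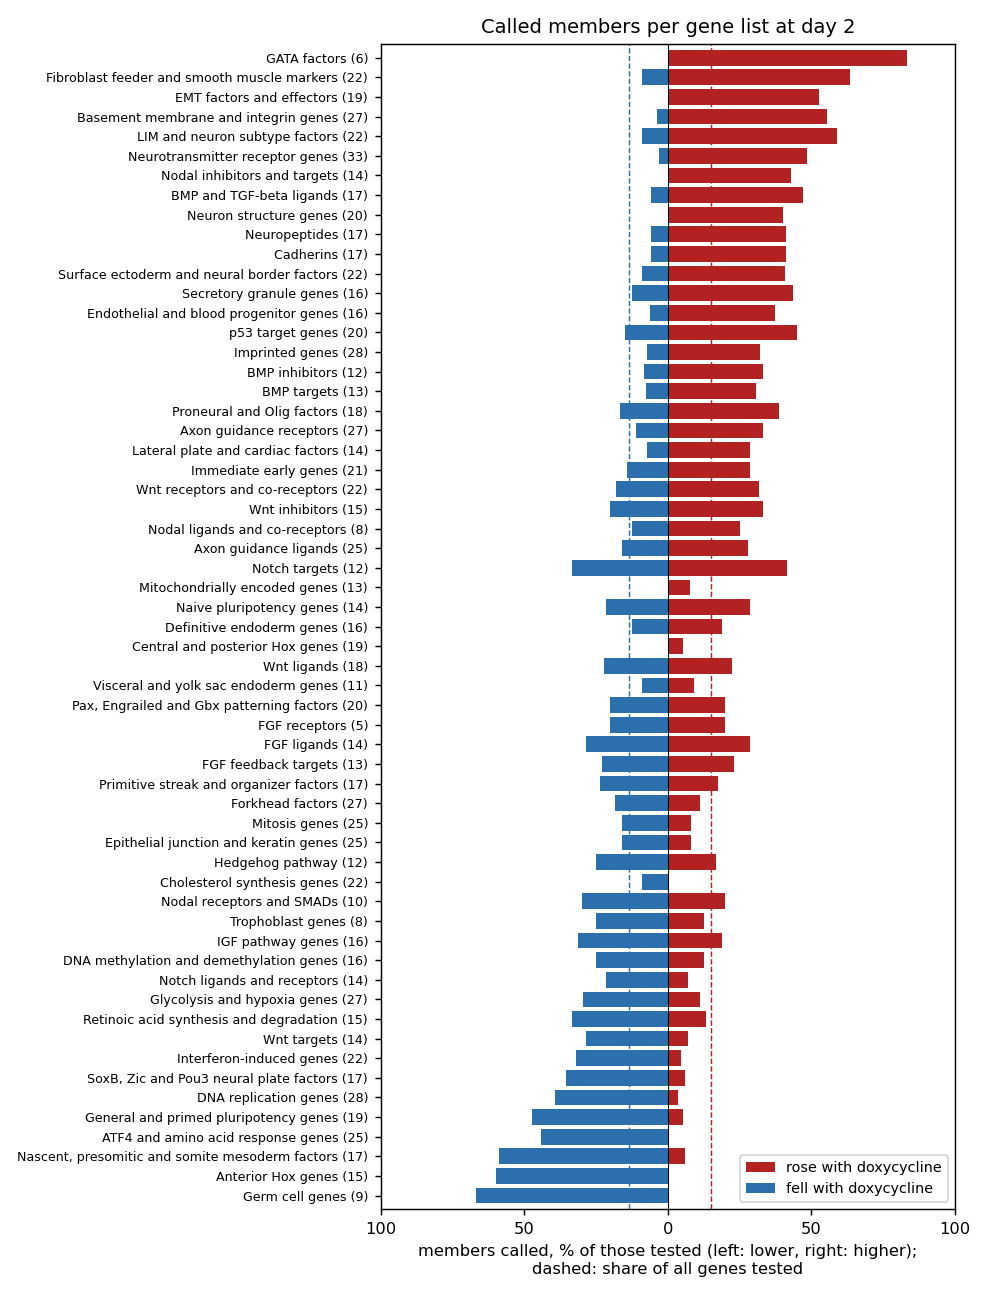
Share of the tested members of each gene list that rose (red, to the right) or fell (blue, to the left) at day 2, in percent of the members tested, whose number is in parentheses. Dashed lines mark 14.9% and 13.4%, the shares over all genes, and the lists drawn run from GATA factors (83.3% rose) to germ cell genes (66.7% fell). The sex-linked list is not drawn, and all 4 of its tested members rose.

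Genes induced by the transcription factor ATF4 when amino acids are short included several that fell and none called higher. Of this list, 0 of 25 tested members rose (edgeR, with 0 higher at an unadjusted p under 0.05 and 0 with DESeq2), 11 fell and 14 did not pass (median log2 fold change -1.54). When NoDox_d2 replicate 1 was omitted, 0 were higher and 17 lower (median -1.796). Ddit4, an inhibitor of mTOR, was at 87.4, 80.3 and 67.8 CPM with doxycycline and 182, 361 and 406 CPM without. Pycr1, a proline synthesis enzyme, was at 9.96, 10.5 and 8.92 CPM with doxycycline and 46.9, 58.8 and 65.6 CPM without. Chac1, which degrades glutathione, was at 2.69, 1.67 and 2.64 CPM with doxycycline and 3.46, 53.2 and 71.7 CPM without. Untreated replicates 2 and 3 were the highest in all 3, and untreated replicate 1 was close to the treated libraries for Chac1. Chac1 was also chosen for its low level in that library. Untreated replicate 1 lay below both other untreated libraries in 23 of the 25 members. The log2 fold changes were -2.01 ± 0.42 for Ddit4 (adjusted p = 0.00497, and -2.301 in the reduced fit with adjusted p = 0.00110), -2.54 ± 0.36 for Pycr1 (adjusted p = 4.51e-04, and -2.68 in the reduced fit with adjusted p = 2.95e-04) and -4.19 ± 1.17 for Chac1 (adjusted p = 0.0203, and -4.75 in the reduced fit with adjusted p = 0.00267). The call of Chac1 ended when D1Dox_d2 replicate 1, 2 or 3 or NoDox_d2 replicate 3 was left out (adjusted p from 0.0602 to 0.0743), and its value was -3.61 without NoDox_d2 replicate 3.

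Glycolysis and hypoxia genes held the glucose transporters. Here 3 of 27 tested members rose, 8 fell and 16 did not pass (median log2 fold change -0.04). The share that rose (11.1%) was under the 14.9% over all genes, and 29.6% fell against 13.4%. The reduced fit had 2 higher and 9 lower, with a median of -0.02. Slc2a3, a high-affinity glucose transporter, was at 283, 327 and 298 CPM with doxycycline and 1231, 1129 and 1287 CPM without. It was lower in every treated library, and the untreated ones were alike (-2.01 ± 0.18, adjusted p = 1.43e-05, reduced fit -2.01, adjusted p = 1.92e-05). Pfkl, a glycolytic enzyme, fell (-0.60 ± 0.12, adjusted p = 0.00405, reduced fit -0.70), as did Pdk1, which limits pyruvate oxidation (-1.15 ± 0.26, adjusted p = 0.00705, reduced fit -1.400). Egln3, an oxygen sensor, rose (1.08 ± 0.16, adjusted p = 5.19e-04, reduced fit 0.91). Among cholesterol synthesis genes, 0 of 22 tested members rose (edgeR, with 0 higher at an unadjusted p under 0.05 and 0 with DESeq2), 2 fell and 20 did not pass (median log2 fold change -0.26). At 9.09%, the share that fell was under the 13.4% over all genes. In the reduced fit 0 were higher and 9 lower, with a median of -0.50. Srebf2, the regulator of the pathway, fell (-0.51 ± 0.15, adjusted p = 0.0244, reduced fit -0.69), a call that ended when D1Dox_d2 replicate 1, 2 or 3 or NoDox_d2 replicate 2 or 3 was left out (adjusted p from 0.0647 to 0.0965). In 19 of the 22 members untreated replicate 1 was below the other untreated libraries.

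DNA replication genes showed small differences. Of these, 1 of 28 tested members rose, 11 fell and 16 did not pass (median log2 fold change -0.35). Without NoDox_d2 replicate 1 there were 1 higher and 14 lower at a median of -0.35. Mcm6, a subunit of the replicative helicase, was at 326, 339.9 and 302 CPM with doxycycline and 422, 520.1 and 555 CPM without (-0.63 ± 0.10, adjusted p = 0.00104, reduced fit -0.75, adjusted p = 5.94e-05). Pold1, the catalytic subunit of a replicative polymerase, was at 73.98, 74.9 and 72.3 CPM with doxycycline and 101, 139 and 137 CPM without (-0.77 ± 0.11, adjusted p = 5.91e-04, reduced fit -0.92, adjusted p = 1.38e-05). Every treated library was below every untreated one in both. Tk1, thymidine kinase, was the member that rose (0.62 ± 0.12, adjusted p = 0.00247, reduced fit 0.57). Of mitosis genes, 2 of 25 tested members rose, 4 fell and 19 did not pass (median log2 fold change 0.04). Counts in the reduced fit were 1 higher and 6 lower (median -0.11). With all libraries the share called was near that over all genes. Ccna2, which overlaps a gene on the opposite strand, rose (0.49 ± 0.11, adjusted p = 0.00736, reduced fit 0.46), and Top2a fell (-0.35 ± 0.09, adjusted p = 0.0115, reduced fit -0.38), a call that ended when D1Dox_d2 replicate 3 was left out (adjusted p = 0.0533). Of mitochondrially encoded genes, 1 of 13 tested members rose, 0 fell (edgeR, with 0 lower at an unadjusted p under 0.05 and 0 with DESeq2) and 12 did not pass (median log2 fold change 0.18). Here the share that rose (7.69%) was under the 14.9% over all genes. With that library left out, 1 were higher and 0 lower (median 0.13). The called gene was mt-Nd2 (0.63 ± 0.18, adjusted p = 0.0230, reduced fit 0.70), and its call ended when D1Dox_d2 replicate 1 or 3 or NoDox_d2 replicate 2 or 3 was left out (adjusted p from 0.0602 to 0.0996).

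Among p53 targets, 9 of 20 tested members rose, 3 fell and 8 did not pass (median log2 fold change 0.25). Leaving out NoDox_d2 replicate 1 gave 10 higher and 4 lower (median 0.45). Ccng1 was at 451, 419.9 and 452 CPM with doxycycline and 309, 226 and 199.6 CPM without (0.85 ± 0.15, adjusted p = 0.00165, reduced fit 1.04). Fas, the death receptor, was at 4.28, 4.07 and 3.29 CPM with doxycycline and 1.02, 0.988 and 0.521 CPM without (2.19 ± 0.33, adjusted p = 7.13e-04, reduced fit 2.35). Eda2r also rose (1.01 ± 0.19, adjusted p = 0.00258, reduced fit 1.15), and Bbc3, a pro-apoptotic BH3 protein, fell (-1.01 ± 0.19, adjusted p = 0.00300, reduced fit -1.13). Treated libraries were higher than untreated ones in Ccng1, Fas and Eda2r without overlap. Of immediate early genes, 6 of 21 tested members of 22 listed rose, 3 fell and 12 did not pass (median log2 fold change 0.40). Its members in the reduced fit were 10 higher and 4 lower, at a median of 0.32. Fos was at 74.2, 80.6 and 76.2 CPM with doxycycline and 26.5, 10.2 and 9.56 CPM without (2.32 ± 0.32, adjusted p = 3.82e-04, reduced fit 2.95, adjusted p = 2.26e-07), and Nr4a1, an orphan receptor, fell (-0.74 ± 0.15, adjusted p = 0.00438, reduced fit -0.71). Of interferon-induced genes, 1 of 22 tested members of 25 listed rose, 7 fell and 14 did not pass (median log2 fold change -0.62). For the reduced fit these numbers were 1 higher and 7 lower (median -0.54). Isg15, a ubiquitin-like protein, fell (-1.498 ± 0.33, adjusted p = 0.00693, reduced fit -1.596), and B2m, the light chain of class I molecules, was at 173, 158 and 171 CPM with doxycycline and 113, 101 and 110.3 CPM without and rose (0.63 ± 0.11, adjusted p = 0.00193, reduced fit 0.65).

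Imprinted genes, which at least in some tissues are expressed from 1 parental allele, rose more often than they fell. Of these, 9 of 28 tested members rose, 2 fell and 17 did not pass (median log2 fold change 0.22). Expression by allele was not measured. On leaving out untreated replicate 1, 9 were higher and 2 lower, with a median of 0.59. The members that rose include Dcn (2.58 ± 0.52, adjusted p = 0.00383, reduced fit 3.04), which is also among the fibroblast markers. Meg3, a maternally expressed noncoding RNA, was at 8.22, 8.87 and 11.004 CPM with doxycycline and 0.741, 0.988 and 1.04 CPM without. Grb10, a growth inhibitor, was at 11.8, 13.8 and 15.9 CPM with doxycycline and 3.60, 5.49 and 6.40 CPM without. Both were higher in every treated library, with log2 fold changes of 3.34 ± 0.47 for Meg3 (adjusted p = 4.19e-04, and 3.19 in the reduced fit with adjusted p = 5.56e-04) and 1.42 ± 0.24 for Grb10 (adjusted p = 0.00123, and 1.202 in the reduced fit with adjusted p = 0.00120). Magel2 (-0.81 ± 0.16, adjusted p = 0.00360, reduced fit -0.74) and Cdkn1c (-0.80 ± 0.19, adjusted p = 0.00897, reduced fit -0.54), a cell cycle inhibitor that overlaps a gene on the opposite strand, fell. In the IGF pathway, 3 of 16 tested members of 17 listed rose, 5 fell and 8 did not pass (median log2 fold change -0.02). Over all genes 14.9% rose and 13.4% fell, against 18.8% and 31.2% in this list. By the reduced fit, 5 rose and 5 fell (median 0.01). Igfbp7, an IGF-binding protein of vessels, was at 20.5, 23.3 and 24.7 CPM with doxycycline and 6.74, 1.82 and 2.05 CPM without (2.69 ± 0.42, adjusted p = 7.86e-04, reduced fit 3.55). Igf2bp2, an RNA-binding protein, was at 192, 189 and 174 CPM with doxycycline and 237, 381 and 365 CPM without (-0.83 ± 0.16, adjusted p = 0.00276, reduced fit -1.03). Irs2, an adaptor of insulin receptors, rose (0.80 ± 0.10, adjusted p = 2.22e-04, reduced fit 0.83). Of forkhead factors, 3 of 27 tested members of 31 listed rose, 5 fell and 19 did not pass (median log2 fold change 0.10). At 11.1% higher and 18.5% lower, these shares were near the 14.9% and 13.4% over all genes. From the reduced fit came 7 higher and 4 lower members (median 0.18). Foxb1, which overlaps a gene on the opposite strand, fell (-3.15 ± 0.45, adjusted p = 4.33e-04, reduced fit -2.75). Foxd4 held 0 counts with doxycycline and 17 without, at least 5.27-fold lower against a floor of 3 counts over the group.

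Some of these effects were tested against the day 4 comparison of D3Dox_d4, 3 libraries with doxycycline, and NoDox_d4, 3 libraries without. These day 4 libraries also enter the fit behind the day 2 p-values, through the shared estimate of spread, but not the day 2 means. Of 18109 genes, the difference of effects passed for 2336 (12.9%), with 1206 higher (6.66%) and 1130 lower (6.24%) at day 4 than at day 2. The number of genes whose effect differs between days was 5037 in the reduced fit. The treatments also differ in the number after the D, so that day and treatment cannot be told apart. Vip had log2 fold change 9.33 ± 0.25 at day 2 and 12.82 ± 0.32 at day 4, a difference of 3.49 ± 0.73 with adjusted p = 0.0118. Cer1 had log2 fold change 5.99 ± 0.58 at day 2 and -0.30 ± 0.48 at day 4, a difference of -6.29 ± 0.73 with adjusted p = 6.46e-04. Zic1 had log2 fold change -4.69 ± 0.75 at day 2 and -1.15 ± 0.60 at day 4, a difference of 3.55 ± 0.93 with adjusted p = 0.0293. The rise of Vip was larger at day 4, whereas the difference was downward for Cer1 and upward for Zic1, whose day 4 values were not called. Untreated Vip at day 2 was near the limit of counting, so that the size of its fold change and of its difference is uncertain. These differences in the reduced fit were 3.24 ± 0.87 for Vip (adjusted p = 0.0184), -6.69 ± 0.77 for Cer1 (adjusted p = 2.63e-04) and 4.02 ± 0.72 for Zic1 (adjusted p = 0.00268). For Mixl1 the difference was not called (log2 fold change 3.62 ± 1.22 at day 2 and 8.203 ± 1.57 at day 4, a difference of 4.58 ± 1.77 with adjusted p = 0.107). Leaving out NoDox_d2 replicate 1 turned its sign, with -0.53 ± 0.31 for Mixl1 (adjusted p = 0.213).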

How the data were processed

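The files hold raw counts per gene, which the authors deposited from 150 bp paired-end mRNA libraries. Per the submitters' processing notes and the file headers, reads were trimmed with Trim Galore, aligned with STAR to GRCm38 (mm10) and counted with featureCounts 2.0.1 on GENCODE vM25, with no strand setting. Groups were taken from the sample titles. Counts were fitted with edgeR 4.0.16 in R 4.3.3 (TMM scaling, filterByExpr, 1 term per group, all 12 libraries, quasi-likelihood F-test with Benjamini-Hochberg adjustment), and the standard error is the log2 fold change divided by the root of F. The same fit without NoDox_d2 replicate 1, DESeq2 1.42.0, a replicate block and leaving out each library were alternatives. The test was tried on simulated data with 50 changed genes per fold. It recovered 8 at 1.5-fold, 32 at 2-fold, 50 at 4-fold and 49 at 8-fold. The changed genes were drawn above a minimum level in NoDox_d2, and noise was independent between genes. No simulated library stood apart as NoDox_d2 replicate 1 did. Recovery at lower levels, or with such a library, was not measured. A gene that did not pass may therefore still have changed. The genes named were drawn from Mixl1, the 12 highest and 12 lowest log2 fold changes among genes called in both fits (the higher group averaging 10 CPM or more, groups apart, and no clone or predicted-gene symbol), up to 4 called members of each list in each direction by adjusted p, the 8 genes (4 above, 4 below) with at least 50 CPM in which NoDox_d2 replicate 1 lay farthest from its group, and the 6 highest and 6 lowest called differences between days. Not every gene this rule selects is given a value: others stand only in the counts of their lists, and a few are not reported here. The comparison, members and lists were chosen with earlier results of these data known. A gene may stand in more than 1 list, so that the counts of lists are not independent. Eomes, Nodal, and Lefty1, Tbx6, Sox1 and Asns in the plots, were added after their values were seen. Promoters are from RefSeq (GRCm38.p6), with chromosome 18 left out. Shares and ratios of counts carry counting error only.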

Additional observations from a re-analysis of the deposited data

Results flagged for a closer look

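The effect of doxycycline differed between day 2 and day 4 for the 11 genes given here, taken by the size of the tested difference (edgeR, day 4 effect minus day 2 effect, adjusted p under 0.05). It was higher at day 4 for Thsd7b by 5.36 on the log2 scale, the neuropeptide gene Gal by 5.14, Ecel1 by 4.58, Tlx2 by 4.48 and Hoxaas2 by 4.47. It was lower at day 4 for Dmbt1 (-7.15), Cer1 (-6.29), the collagen gene Col14a1 (-6.27), Epha3 (-6.23), the endothelin gene Edn1 (-5.76) and Shh (-5.69). Some day 2 effects were not called with all libraries, such as Col14a1 (3.06, adjusted p = 0.0544) and Ecel1 (-1.21, adjusted p = 0.252), with -3.21 and 3.37 at day 4. Both were called at day 2 in the reduced fit (Col14a1 3.73, adjusted p = 0.0466, and Ecel1 -1.74, adjusted p = 0.0269). Edn1 went from 3.28 at day 2 to -2.48 at day 4. Dmbt1 at day 4 was near the limit of counting, at means of 0.104 CPM with doxycycline and 0.0394 CPM without. Hoxaas2 and Shh overlap a gene on the opposite strand. Tlx2 had log2 fold change 5.85 ± 0.46 at day 2 and 10.33 ± 0.66 at day 4, a difference of 4.48 ± 1.00 with adjusted p = 0.0153. Epha3 had log2 fold change 5.72 ± 0.51 at day 2 and -0.51 ± 0.41 at day 4, a difference of -6.23 ± 0.65 with adjusted p = 3.16e-04. The rise of Tlx2 was thus the larger at day 4, and Epha3 rose at day 2 while its day 4 value was not called. Tlx2 was near the limit of counting in NoDox_d2 replicate 2, and the size of its difference is uncertain. All 11 differences were called in the same direction in the reduced fit.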

How the results depend on the processing

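The number of genes called at day 2 (5136 with edgeR) was 5105 with a replicate block (2820 higher and 2285 lower) and 5936 with DESeq2. It was 10571 from day 2 libraries alone without NoDox_d2 replicate 1 (3 against 2), 9902 without both NoDox libraries numbered 1, 2464 at an adjusted p under 0.01, and 3048 to 7438 when 1 library was left out. Leaving out D1Dox_d2 replicate 1, 2 or 3 gave 3762, 3371 and 3048, and NoDox_d2 replicate 2 or 3 gave 3334 and 3142. The number of genes whose effect differs between days (2336) was 2448 with the block, 3422 with DESeq2, 6424 without both NoDox libraries numbered 1, 691 at an adjusted p under 0.01, and 1226 to 5037 when 1 library was left out. The Mixl1 log2 fold change at day 2 (3.62) was 3.62 from only the 6 day 2 libraries (adjusted p = 0.120) and 3.62 with robust moderation (adjusted p = 0.0507), 4.86 with the block (adjusted p = 0.0261), and 3.04 to 8.74 when 1 library was left out, and DESeq2 gave it no adjusted p. The cause of these changes was not tested, other than that fewer libraries entered some fits. Deviations of same-numbered libraries from their group means correlated at -0.131, -0.0516 and -0.153, and those of differently numbered ones at -0.0345 to 0.150. With 3 libraries per group, these values cannot tell whether same-numbered libraries shared a culture or batch. Of 301 called genes chosen for the text, 90 lost their call under some alternative and 0 reversed direction. At these depths 3 counts corresponded to 0.107 to 0.124 CPM, which limits what can be said of lower levels.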
